A study of Mus musculus with 11 samples.

Results

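A set of 9 genes, Slc17a8, Ncam2, St6galnac2, Acox2, Matn2, Gda, Fcer1g, Inhba and Agpat4, was examined in RNA-Seq counts of mouse bone marrow hematopoietic stem cells (HSC), out of 37991 genes in the count table. They had been chosen by name, from their low counts in NrasG12D (NV) libraries relative to control libraries, so their NV against control values are given as a description and carry no test. The set had been put together as HSC genes lost with NrasG12D. The counts fitted that name for 5 of the 9 genes. No NV library had a single count of Slc17a8, Ncam2, Acox2, Matn2 or St6galnac2, while Gda, Fcer1g, Inhba and Agpat4 were reduced but still counted in NV. Libraries at 0 counts were not particular to NV for Matn2, Acox2 and St6galnac2, which were at 0 in 3, 2 and 2 NA10hd libraries as well.

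The 11 libraries came from C57BL/6 mice aged 8 weeks, with 4 control, 4 NA10hd and 3 NV libraries, each made from 1000 sorted HSC. Control mice are labelled wild type, and littermates in the study's methods. NA10hd mice carried the NUP98-HOXA10 homeodomain fusion behind a loxP-flanked stop (LSL) in the ROSA26 locus, and NV mice carried 1 LSL NrasG12D allele at Nras beside a normal allele. Both alleles were opened by Vav-Cre, which acts throughout the blood-forming system and not in HSC alone. The sort kept lineage-negative, CD48-, c-Kit+, Sca1+, CD135-, CD150+ cells, and the labels do not say which mouse or mice an aliquot came from.

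HSC keep the blood system going by dividing rarely and by giving rise to every blood lineage. Nras is a small GTPase that passes signals from cytokine receptors to the RAF, MEK and ERK kinases, and the G12D form stays longer in its active, GTP-bound state. The fusion joins part of a nuclear pore protein to the DNA-binding homeodomain of a HOX factor and expands HSC in culture and in transplants. The 9 genes do not form a pathway. Slc17a8 encodes VGLUT3, which loads glutamate into vesicles, Ncam2 encodes an adhesion molecule of the immunoglobulin superfamily, and Matn2 encodes matrilin 2, a protein of the extracellular matrix. St6galnac2 transfers sialic acid to O-linked glycans, Acox2 is a peroxisomal oxidase of branched-chain fatty acids and bile acid intermediates, and Gda is guanine deaminase, which turns guanine into xanthine. Fcer1g is the signalling gamma chain shared by several Fc receptors, Inhba encodes the subunit of which activin A is made, and Agpat4 makes phosphatidic acid in phospholipid synthesis.

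Total counts per library ran from 5464815 to 14283008, and a gene with 0 counts in a library could lie at up to 0.21 CPM (counts scaled to a common library size, here 3 counts over the total) in the deepest and 0.549 CPM in the shallowest. Over whole groups the same limit of 3 counts was 0.0836 CPM in control, 0.0745 CPM in NA10hd and 0.0820 CPM in NV. Such limits cover counting error only, because reads from amplified cDNA are not independent molecules. The female-specific transcript Xist and Y-linked genes were counted together in control replicates 2 and 3 and in all 3 NV libraries, with Xist as low as 45 counts in control replicate 3, and whether these aliquots pooled mice of both sexes was not tested. Y-linked counts without Xist were found in NA10hd replicates 1 to 3 and in control replicates 1 and 4, and Xist counts without Y-linked ones in NA10hd replicate 4. Since no label ties an aliquot to an animal, the p-values below measure the spread between these libraries, which may in part be technical. Kit, Ly6a (Sca1) and Slamf1 (CD150), the genes of the positive sort markers, were counted in every library and together made 638 to 778 CPM in control, 605 to 892 CPM in NA10hd and 768 to 968 CPM in NV.

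Of the 5 genes at 0 in NV, Slc17a8 was counted most in control HSC. Slc17a8 (ENSMUSG00000019935) lies on the minus strand of chr10:89036765-89083998 in NCBIM37, the build of the counts. Its level was 13.4, 36.6, 38.8 and 21.5 CPM in control replicates 1 to 4, from 75 to 487 counts, and 5.78, 9.23, 9.16 and 24.8 CPM in NA10hd replicates 1 to 4. Every control and NA10hd library held the transcript, and no NV library had a read of it. Against the limit of 3 counts over the group, Slc17a8 was at least 338-fold lower in NV than in control and at least 143-fold higher in NA10hd than in NV.

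Ncam2 (ENSMUSG00000022762) has the longest span of the set, 424 kb, on the plus strand of chr16:81200942-81624530. Control libraries held 6.08, 3.41, 8.21 and 5.78 CPM of it, and NA10hd libraries 9.10, 9.07, 4.75 and 3.83 CPM. These ranges overlap along almost their whole length, and NV again had 0 counts in each library. Ncam2 was thus at least 72.4-fold lower in NV than in control, and at least 79.4-fold higher in NA10hd than in NV.

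St6galnac2, Acox2 and Matn2 had low levels in control. St6galnac2 (ENSMUSG00000057286, minus strand of chr11:116536617-116556182) varied widely, with 32, 28, 2 and 41 counts in control replicates 1 to 4 and 0, 21, 124 and 0 counts in NA10hd replicates 1 to 4. Control replicate 3, at 2 counts, came close to the NV libraries, so its loss in NV rests on the other 3 control libraries, and the fold against the limit was at least 43.8. Part of St6galnac2 lies over 1810032O08Rik on the opposite strand, a gene with a control mean of 21.7 CPM. The strand setting of the counting is not given in the sources used here, and without it reads of the overlapping stretch cannot be told apart.

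Acox2 (ENSMUSG00000021751, minus strand of chr14:9058025-9091867) had 24, 44, 42 and 8 counts in control, or 4.29, 4.17, 3.35 and 1.08 CPM. NA10hd replicates 1 and 2 had 15 and 8 counts and replicates 3 and 4 had 0. Matn2 (ENSMUSG00000022324, plus strand of chr15:34236436-34366029) had 13, 17, 46 and 20 counts in control, or 2.32, 1.61, 3.67 and 2.69 CPM, while 11 counts in NA10hd replicate 2 were its only ones in either mutant genotype. Both genes were thus low or at 0 in NA10hd as well as in NV. Slc17a8 and Ncam2 were counted in every NA10hd library, though Slc17a8 at 44.4% of its control mean. Acox2 was at least 39.6-fold and Matn2 at least 31.7-fold lower in NV than in control.

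**Figure D1:**
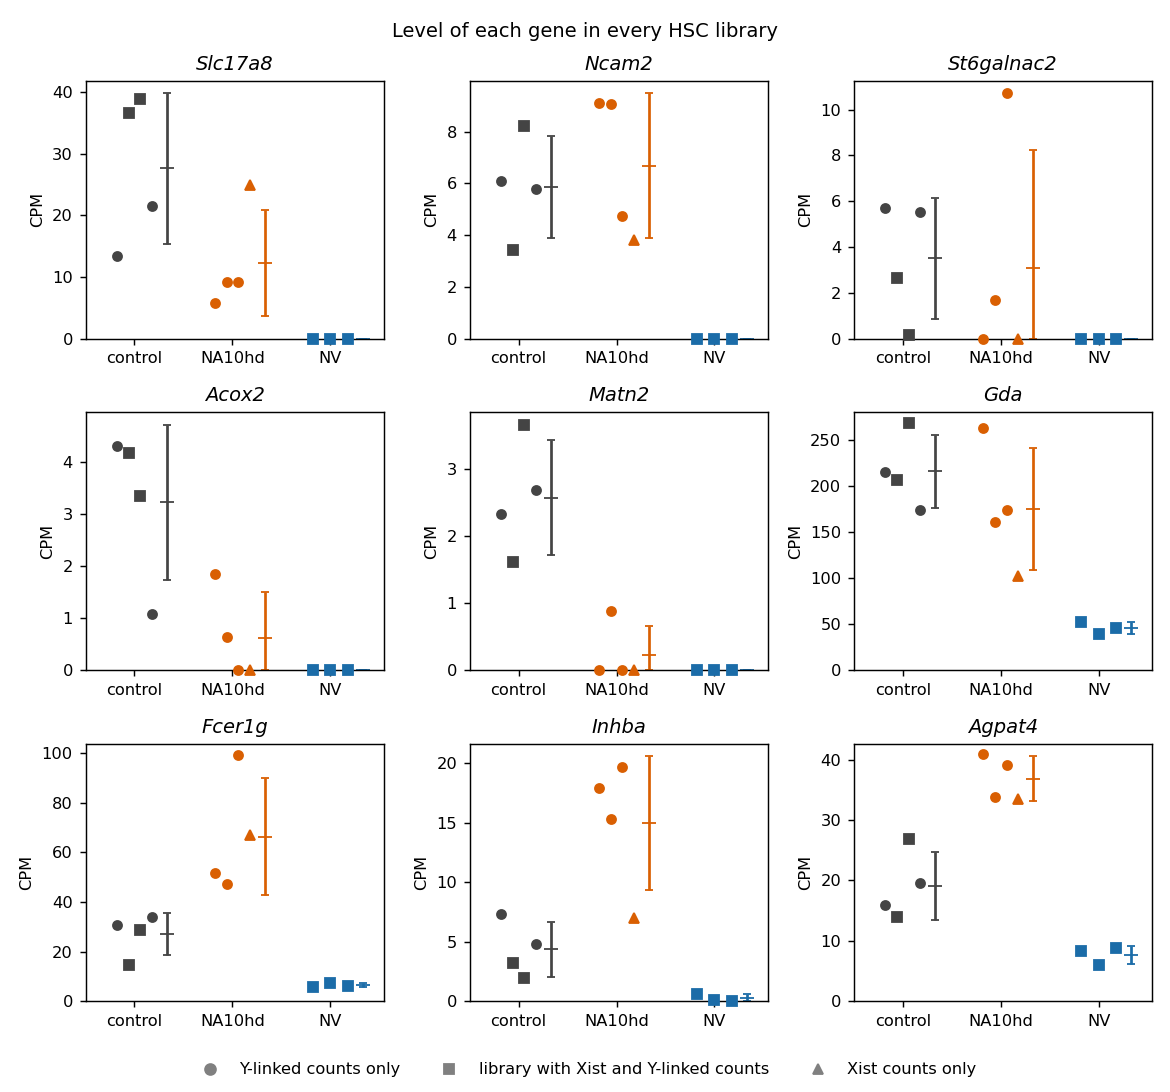
Level of each of the 9 genes in every library, in TMM-scaled CPM (vertical axis), for control, NA10hd and NV. Points are libraries, shaped by whether they held Xist counts, Y-linked counts or both, and the bars show the mean ± SD, drawn no lower than 0. Slc17a8 stands between 13.4 and 38.8 CPM in control and at 0 in the 3 NV libraries, while Gda, Fcer1g and Agpat4 remain above 0 in NV.

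How uncommon such a pattern was depended on the level in control. Of 10632 genes with a control mean of at least 5 CPM, 2 (0.0188%) had 0 counts in all NV libraries, and these were Slc17a8 and Ncam2. None of the 10632 was at 0 in all NA10hd libraries, a condition on 4 libraries where that for NV is on 3. Of 12105 genes with a control mean of at least 2 CPM, 10 (0.0826%) were at 0 in all NV libraries, the 5 genes of the set and Pxdn, S1pr3, Myo5b, Htr7 and Fblim1, which are named here after their values were seen. Of the same genes, 4 (0.033%) were at 0 in all NA10hd libraries, Zfp458, Smc1b, Gm16765 and Cdr2, and none of these belongs to the set. Acox2, Matn2 and St6galnac2 fall among the 1473 genes with a control mean of 2 to 5 CPM, and in this range 3.46% to 5.16% of genes were at 0 in any given NV library, 5.97% to 16.1% in a NA10hd library and 0.679% to 2.17% in a control library. Zero counts were therefore commonest in NA10hd libraries for genes at the level of Acox2 and Matn2, and the part of this in their NA10hd values was not tested. The share in control libraries was kept low by the range itself, which was set on the control mean.

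Promoter sequence from RefSeq, the 250 bases before the first listed start on GRCm38.p6, is shown for 4 genes with unlike patterns across the genotypes: Slc17a8 and Ncam2 (0 in NV, present in NA10hd), Acox2 (low in both mutants) and Fcer1g (lower in NV, higher in NA10hd). The windows are chr10:89621250-89621499 (minus strand) for Slc17a8, chr16:81200447-81200696 (plus strand) for Ncam2, chr14:8259020-8259269 (minus strand) for Acox2 and chr1:171234350-171234599 (minus strand) for Fcer1g. Capitals mark matches, on either strand, to the motifs described after them.
Slc17a8: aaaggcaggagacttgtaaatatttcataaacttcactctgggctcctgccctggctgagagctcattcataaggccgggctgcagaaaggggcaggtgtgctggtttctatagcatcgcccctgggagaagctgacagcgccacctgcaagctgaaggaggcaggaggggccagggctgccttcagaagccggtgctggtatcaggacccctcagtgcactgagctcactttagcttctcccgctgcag
Ncam2: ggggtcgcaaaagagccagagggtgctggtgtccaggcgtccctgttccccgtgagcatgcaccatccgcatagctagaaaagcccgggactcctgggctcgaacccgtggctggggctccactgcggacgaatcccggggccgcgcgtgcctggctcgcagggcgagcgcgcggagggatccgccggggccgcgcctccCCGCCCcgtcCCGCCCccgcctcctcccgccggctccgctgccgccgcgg
Acox2: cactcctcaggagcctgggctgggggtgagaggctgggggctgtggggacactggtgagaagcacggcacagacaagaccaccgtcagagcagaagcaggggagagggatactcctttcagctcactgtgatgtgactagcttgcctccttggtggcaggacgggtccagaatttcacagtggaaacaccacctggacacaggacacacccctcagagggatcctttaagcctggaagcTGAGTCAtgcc
Fcer1g: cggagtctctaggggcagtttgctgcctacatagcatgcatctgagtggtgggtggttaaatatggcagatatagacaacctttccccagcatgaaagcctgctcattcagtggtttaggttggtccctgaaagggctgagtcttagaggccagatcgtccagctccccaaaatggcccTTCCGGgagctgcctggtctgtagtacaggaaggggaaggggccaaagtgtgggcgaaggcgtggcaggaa

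The 4 promoters differ in base composition. The Ncam2 window held 32 CpG dinucleotides and was 75.2% G and C, while Slc17a8 and Fcer1g had 5 CpG each and Acox2 had 3, against a median of 6 and quartiles of 2 and 16 over 32851 windows. A window was found for 7 of the 9 genes, and those of Agpat4, Gda and Inhba, not printed, held 10, 5 and 3 CpG. The motifs searched were the GATA site AGATAA, the Runx site TGTGGT, the Ets site CCGGAA, the AP-1 site TGACTCA, the GC box GGGCGG, the E-box CACGTG, the TATA box TATAAA, the CAAT box CCAAT and the cyclic AMP element TGACGTCA, on both strands, and none of these words contains another. The AP-1 word, a site for Fos and Jun factors, was in 2 of 7 windows, Acox2 and Agpat4, and in 4.46% of all windows, and in Acox2 it starts 11 bases before the start of transcription. The Ets word was in Fcer1g alone, 71 bases before the start (12% of all windows), the GC box in Ncam2 alone (32.7%), the TATA word in Inhba alone (12.4%) and the CAAT word in Gda and Agpat4 (33.8%). The GATA (9.99%), Runx (14%), E-box (6.02%) and cyclic AMP (1.55%) words were in none of the 7 windows. Slc17a8 had no match to any of the 9 words.

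The 4 genes that NV HSC still expressed were reduced to different degrees. Gda (ENSMUSG00000058624, minus strand of chr19:21465797-21547935) was read most deeply, with 1207 to 3374 counts in control libraries. It stood at 216, 206, 269 and 174 CPM in control, at 263, 161, 174 and 102 CPM in NA10hd and at 52.5, 39.2 and 45.2 CPM in NV. All NV libraries lay below all control and all NA10hd libraries, and the NV mean was 21.1% of the control mean, with a log2 fold change of -2.25 (SE 0.17).

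Fcer1g (ENSMUSG00000058715, minus strand of chr1:173159703-173164496) has the shortest span of the set, 4.79 kb. Its level was 30.7, 14.8, 28.8 and 34.0 CPM in control, 51.9, 47.2, 99.2 and 67.1 CPM in NA10hd and 5.81, 7.44 and 6.09 CPM in NV. The 3 genotypes did not overlap, with NV lowest and NA10hd highest. The NV mean was 23.8% of control and the log2 fold change was -2.07 (SE 0.32).

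Inhba (ENSMUSG00000041324, plus strand of chr13:16103684-16119044) was near 0 in NV, where 8, 2 and 0 counts were read in replicates 1 to 3. Control libraries had 7.33, 3.22, 1.99 and 4.84 CPM and NA10hd libraries 17.9, 15.3, 19.7 and 6.96 CPM. The NV mean of 0.257 ± 0.335 CPM (SD, n = 3) was 5.92% of the control mean, and the log2 fold change was -3.99 (SE 0.97), or -5.62 without NV replicate 1. The SE was the largest among these 4 genes, as was the relative spread in NV.

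Agpat4 (ENSMUSG00000023827, plus strand of chr17:12311570-12412511) had the smallest reduction. It measured 15.9, 13.9, 26.9 and 19.6 CPM in control, 40.9, 33.9, 39.1 and 33.5 CPM in NA10hd and 8.36, 5.96 and 8.79 CPM in NV. The groups were again separate, with the NV mean at 40.4% of control and a log2 fold change of -1.32 (SE 0.31). The highest NV library, at 8.79 CPM, and the lowest control library, at 13.9 CPM, mark the narrowest gap among the 4 genes in fold terms.

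In all 9 genes, every NV library was below every control library, a pattern that held for 9.37% of the 13462 genes tested, and edgeR called all 9 lower in NV, against 2.21% of genes tested. Because the genes were picked from this contrast, nothing follows from these counts. In a bulk library of sorted cells, fewer cells that express a gene and less RNA of it per cell cannot be told apart.

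**Figure D2:**
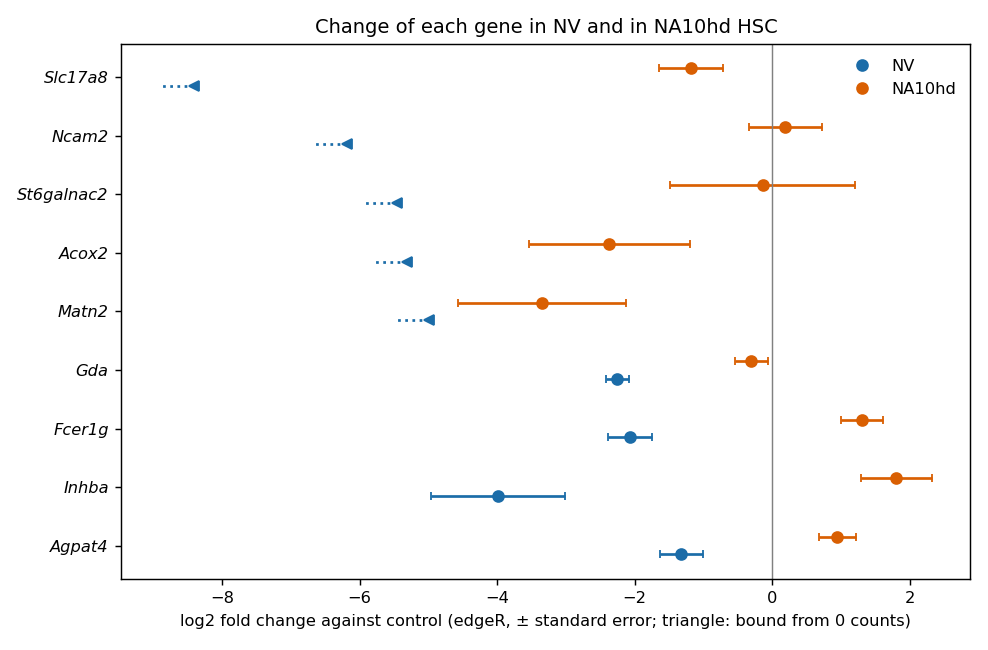
Log2 fold changes of the 9 genes (horizontal axis) in NV against control and in NA10hd against control, with points for edgeR estimates and bars for their standard errors. Triangles with a dotted tail mark the bound for genes at 0 in all NV libraries, from 31.7-fold for Matn2 to 338-fold for Slc17a8, in place of an estimate. In NA10hd against control Fcer1g, Inhba and Agpat4 lie to the right of 0, while Slc17a8, Acox2 and Matn2 lie to the left of it.

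The genes are named for their NV levels, although they were picked with the NA10hd values known as well, and NA10hd against control asked whether the fusion, without the Nras allele, came with other levels of them. This comparison shares its 4 control libraries with the NV comparison, so a control library that was high by chance lowers both mutants. None of the 9 genes passed the edgeR threshold (a fold change over 1.5 with an adjusted p below 0.05), which 0.00766% of 13060 genes did. At an unadjusted p under 0.05 there were 5 (11.9% of genes tested), namely Slc17a8, Fcer1g, Inhba, Agpat4 and Matn2, of which Matn2 was tested only through its control counts and adds nothing to the count, and DESeq2 called 3, Fcer1g, Inhba and Agpat4 (1.7% of 14004 genes).

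Fcer1g and Agpat4 were higher in every NA10hd library than in every control library, as were 3.89% of the genes tested. Fcer1g averaged 66.3 ± 23.5 CPM in NA10hd (SD, n = 4) and 27.1 ± 8.48 CPM in control (SD, n = 4), with a log2 fold change of 1.30 (SE 0.30) and an adjusted p of 0.192 by edgeR's quasi-likelihood test (DESeq2 adjusted p = 0.0103). Agpat4 averaged 36.9 ± 3.74 CPM and 19.1 ± 5.70 CPM, a log2 fold change of 0.95 (SE 0.27, edgeR adjusted p = 0.249, DESeq2 adjusted p = 0.0344). The activin subunit gene Inhba was at 14.97 ± 5.64 CPM in NA10hd and 4.35 ± 2.31 CPM in control, a log2 fold change of 1.81 (SE 0.51, edgeR adjusted p = 0.249, DESeq2 adjusted p = 0.0278). Inhba overlapped between the genotypes, because NA10hd replicate 4, at 6.96 CPM, was below control replicate 1, at 7.33 CPM.

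On the other side of control were the glutamate transporter gene Slc17a8 and the matrix gene Matn2. Slc17a8 averaged 12.3 ± 8.55 CPM in NA10hd and 27.6 ± 12.2 CPM in control (SD, n = 4 each), a log2 fold change of -1.18 (SE 0.47, edgeR adjusted p = 0.358), and the ranges overlapped through NA10hd replicate 4 at 24.8 CPM, without which the log2 fold change was -1.77. Matn2 averaged 0.219 ± 0.438 CPM and 2.57 ± 0.856 CPM, with all NA10hd libraries below all control libraries, as for 3.94% of genes tested, and a log2 fold change of -3.35 (SE 1.22, edgeR adjusted p = 0.324). Acox2, at 0.620 ± 0.869 CPM against 3.22 ± 1.49 CPM, had a log2 fold change of -2.37 (SE 1.17, edgeR adjusted p = 0.451). Matn2 and Acox2 entered this test only through their control counts, since the low-count filter dropped both where NA10hd was compared with NV, so a lower value in NA10hd was built into their being tested. Single libraries moved both, to -3.73 for Acox2 without NA10hd replicate 1 and to -7.54 for Matn2 without NA10hd replicate 2, where all NA10hd libraries were at 0 and the fitted value depends on the prior count.

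Smaller estimates were found for the remaining 3 genes. The adhesion gene Ncam2 had 6.69 ± 2.79 CPM in NA10hd and 5.87 ± 1.96 CPM in control, a log2 fold change of 0.19 (SE 0.53, edgeR adjusted p = 0.919). Guanine deaminase, Gda, had 175 ± 66.4 CPM and 216 ± 39.5 CPM, a log2 fold change of -0.30 (SE 0.24, edgeR adjusted p = 0.662). For St6galnac2 the estimate of -0.14 had an SE of 1.35, so a large change in either direction was not detectable, and its NA10hd mean of 3.10 CPM came mostly from replicate 3 at 10.7 CPM.

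Directly between the mutants, NA10hd HSC had more of every gene than NV HSC on the group means, a description again since the NV libraries entered the choice. Fcer1g was 10.3-fold, Inhba 58.2-fold, Agpat4 4.79-fold and Gda 3.84-fold higher in NA10hd. The fold of Inhba rests on the 8, 2 and 0 counts in NV, and its log2 fold change of 5.77 was 7.41 without NV replicate 1. The low-count filter kept 6 of the 9 genes in this comparison, and in all 6 every NA10hd library was above every NV library (9.63% of 13461 genes). St6galnac2, Acox2 and Matn2, which it dropped, had 2, 2 and 3 NA10hd libraries at 0 counts.

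Levels can be ranked between genes only per length, as CPM per kb of exon. In control HSC, Gda at 35.2 ± 6.44 CPM per kb and Fcer1g at 33.9 ± 10.6 CPM per kb stood first and did not differ beyond their SD (n = 4). Agpat4 (7.06 ± 2.11) and Slc17a8 (5.84 ± 2.58) followed and did not differ beyond their SD, and Inhba (2.19 ± 1.16) came next, with its highest library at 3.70 CPM per kb above the lowest of Slc17a8 at 2.84 CPM per kb. Acox2 (0.870 ± 0.402), Matn2 (0.713 ± 0.237), Ncam2 (0.699 ± 0.234) and St6galnac2 (0.495 ± 0.372 CPM per kb) were last and not separated from each other. In NA10hd HSC the first place went to Fcer1g, at 82.9 ± 29.4 CPM per kb, followed by Gda at 28.5 ± 10.8, Agpat4 at 13.6 ± 1.38, Inhba at 7.56 ± 2.85 and Slc17a8 at 2.596 ± 1.81. In NA10hd replicate 4 the last pair stood the other way, with Inhba at 3.51 and Slc17a8 at 5.26 CPM per kb. In NV HSC, Fcer1g (8.06 ± 1.09) and Gda (7.44 ± 1.09 CPM per kb, n = 3) did not differ beyond their SD, followed by Agpat4 (2.85 ± 0.566) and Inhba (0.130 ± 0.169).

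Among the 8 control and NA10hd libraries the genes did not vary as a block. On the log2(CPM + 0.5) scale Pearson's r was -0.945 between Slc17a8 and Inhba, 0.851 between Fcer1g and Agpat4, 0.750 between Fcer1g and Inhba, 0.711 between Acox2 and Matn2 and -0.864 between Acox2 and Fcer1g. These values are descriptive, and the libraries share their genotype split and sex mix. Slc17a8 and Inhba also moved with the sex mix. In control, Slc17a8 was 13.4 and 21.5 CPM in the libraries with Y-linked counts alone and 36.6 and 38.8 CPM in those with both, and in NA10hd it was 5.78 to 9.23 CPM with Y-linked counts alone and 24.8 CPM with Xist alone. For Inhba the order was the opposite, with 4.84 to 7.33 CPM against 1.99 to 3.22 CPM in control, and 15.3 to 19.7 CPM against 6.96 CPM in NA10hd. The part of sex in these levels was not tested.

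Libraries of the same mix were also compared. With NA10hd replicates 1 to 3 and control replicates 1 and 4, all without Xist, the log2 fold change was 1.03 for Fcer1g, 1.54 for Inhba, 1.09 for Agpat4, -1.11 for Slc17a8 and -2.98 for Matn2, and edgeR called 0 of the 9 genes. Acox2 had -1.71 there in place of -2.37, St6galnac2 -0.42 in place of -0.14 and Gda 0.03 in place of -0.30, a change of sign. Control replicates 2 and 3 hold both kinds of counts like the NV libraries, though not in equal proportions. These ran from 45 Xist beside 1458 Y-linked counts in control replicate 3 to 277 beside 1241 in NV replicate 2. Against control replicates 2 and 3, the log2 fold change in NV was -2.39 for Gda, -1.76 for Fcer1g, -3.27 for Inhba and -1.41 for Agpat4. For Inhba this was over 1.5 times nearer to control in fold than the -3.99 against all control libraries.

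The 9 genes lie on 9 different chromosomes, and the nearest expressed gene on each side of each, 18 in all with a control mean of at least 1 CPM, was read to see whether genes on either side were lower too. Genes that overlap a member were not taken, and some neighbours lay far off, at up to 2624 kb beside Ncam2. In NV against control edgeR called 2 of 18, both beside Matn2 (4.76% of all genes tested), with 5 at an unadjusted p under 0.05 (19.5% of all genes) and 4 by DESeq2 (6.98% of 14544 genes). Rpl30, a ribosomal protein gene 4.23 kb from Matn2, fell from 1012 to 673 CPM (log2 fold change -0.59, SE 0.10, edgeR adjusted p = 0.00646). Laptm4b, a lysosomal membrane protein gene 22.4 kb away on the other side, fell from 71.5 to 43.3 CPM (log2 fold change -0.73, SE 0.16, edgeR adjusted p = 0.0172). Laptm4b did not pass without NV replicate 2 (adjusted p = 0.0809) or NV replicate 3 (adjusted p = 0.0847) in edgeR, and Rpl30, whose pseudogene copies can share its reads, fell below the fold threshold without control replicate 1, 3 or 4 or NV replicate 3 (log2 fold changes of -0.58 to -0.56). Close neighbours of other members did not pass, with a log2 fold change of 0.28 (SE 0.33, edgeR adjusted p = 0.710) for Kctd6, 1.94 kb from Acox2. Tomm40l, 7.06 kb from Fcer1g, had a log2 fold change of 0.68 (edgeR adjusted p = 0.579). Among the other neighbours, named after their values were seen, Zfand5, 109 kb from Gda, had a log2 fold change of -0.54 (edgeR adjusted p = 0.0123) and missed the threshold on fold alone. Gas2l3, 130 kb from Slc17a8, had -0.95 (edgeR adjusted p = 0.0657) and 5033411D12Rik, 831 kb from Inhba, -2.21 (edgeR adjusted p = 0.0736). In NA10hd against control edgeR called 0 of 18 and DESeq2 0, with 2 at an unadjusted p under 0.05.

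**Figure D3:**
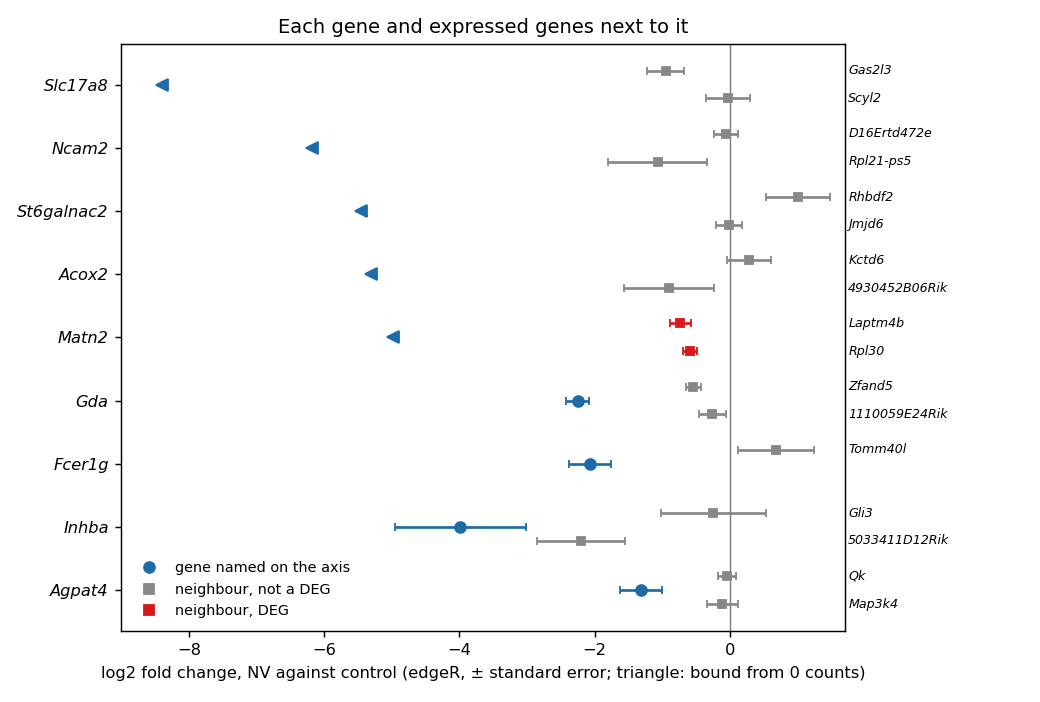
Log2 fold change in NV against control (horizontal axis, edgeR, bars for the standard error) of each of the 9 genes (blue) and of expressed genes to its left or right, at up to 2624 kb (squares, named at the right). The 2 neighbours in red, Laptm4b at -0.73 and Rpl30 at -0.59, passed the threshold, the other neighbours drawn did not, and triangles mark bounds for the 5 genes at 0 in NV.

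Genes of the families and pathways to which the 9 belong were counted next, 201 genes of 9 lists without the members themselves. Of 133 tested in NV against control, 2 were higher and 6 lower by edgeR, which is 6.02% against 4.76% of all genes tested, and the median log2 fold change was 0.03 against -0.01. In NA10hd against control edgeR called 0 of 125, with 16 at an unadjusted p under 0.05 (11.9% of all genes tested) and 3 by DESeq2 (1.7%), and the median was 0.18 against 0.02. On the median the families thus stayed near the background in NV. By direction, the 6 lower of 133 stand beside 2.21% of all genes tested called lower, and the 2 higher beside 343 of 13462 genes.

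The list around Gda, purine salvage and breakdown, had 3 of 14 tested genes called in NV, where 4.76% of all genes tested were called. Xdh, xanthine dehydrogenase, which takes the xanthine that Gda makes on to uric acid, fell from 19.1 to 5.69 CPM (log2 fold change -1.75, SE 0.35, edgeR adjusted p = 0.0134). The nucleoside kinases Dck and Adk rose, from 32.5 to 65.5 CPM (log2 fold change 1.005, edgeR adjusted p = 0.00716) and from 39.5 to 70.3 CPM (0.82, edgeR adjusted p = 0.0180). Without NV replicate 3 none of them passed in edgeR, at log2 fold changes of -1.69 for Xdh (adjusted p = 0.0708), 0.83 for Dck (0.0559) and 0.74 for Adk (0.0998). Without NV replicate 2 Xdh and Adk did not pass in edgeR, at -1.77 (adjusted p = 0.0612) and 0.80 (0.0785). Neither Dck nor Adk passed in edgeR with libraries of the same sex mix (adjusted p = 0.0608 and 0.0908) or with all 3 groups in one fit (0.0866 and 0.109).

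In the adhesion list around Ncam2, 2 of 11 tested genes fell. Of all genes tested 2.21% were called lower in NV, and this share is the background for the lists that follow too. They were Alcam, an activated leukocyte adhesion molecule, from 71.7 to 37.6 CPM (log2 fold change -0.94, edgeR adjusted p = 0.00470), and the junctional Jam3, from 68.5 to 41.4 CPM (-0.73, edgeR adjusted p = 0.0484). Of 12 tested matrix genes around Matn2, von Willebrand factor, Vwf, fell from 220 to 124 CPM (-0.83, edgeR adjusted p = 0.00792). Of 16 tested genes of Fc receptors and their partners around Fcer1g, the phospholipase Plcg2 fell from 260 to 171 CPM (-0.61, edgeR adjusted p = 0.0183). Of 24 tested genes of phospholipid synthesis around Agpat4, the acyltransferase Mboat2 fell from 29.3 to 15.7 CPM (-0.90, edgeR adjusted p = 0.0281). Alcam and Vwf passed with any 1 library left out. Over all family lists edgeR called only 2 genes with all 3 groups in one fit and 4 with libraries of the same sex mix. Not all genes of this paragraph therefore passed in those settings. Jam3 passed only without NV replicate 1 (edgeR adjusted p of 0.0777 to 0.195 without each other library), Mboat2 did not pass without control replicate 1 or 4 or any NV library (0.0741 to 0.104), and Plcg2 did not pass without control replicate 1 (0.0513) or any NV library (0.0690 to 0.0796) and fell below the fold threshold without control replicate 2 (log2 fold change -0.55). The lists around the other 4 genes had none past the threshold in NV (4.76% of all genes tested), with 2 tested for Slc17a8, 18 for Acox2, 17 for St6galnac2 and 19 for the activin pathway of Inhba.

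Markers of HSC and of other cells were read beside the 9 genes, although the lineage antibodies of the sort are directed at T, B, myeloid and erythroid cells and would remove most of these. The 11 long-term HSC markers were counted in every group and summed to 2190 to 2938 CPM in control, 2964 to 3226 CPM in NA10hd and 1830 to 2111 CPM in NV, so their sum moved in the same order as Fcer1g and Inhba. edgeR called 3 of the 11 lower in NV (2.21% of all genes tested) and none higher. They were Procr (log2 fold change -0.72, adjusted p = 0.00871), Fgd5 (-1.13, adjusted p = 0.0284) and Mllt3 (-0.74, adjusted p = 0.0101). Tek was at 71.9 to 96.0 CPM in control and 98.7 to 128 CPM in NV, with no overlap (log2 fold change 0.42, edgeR adjusted p = 0.126), and Meis1 had a log2 fold change of 0.12 (edgeR adjusted p = 0.604). Ly6a, a gate gene, was higher in NV (log2 fold change 0.70, edgeR adjusted p = 0.0126). In edgeR, Procr did not pass without NV replicate 3 (adjusted p = 0.0568), Mllt3 without NV replicate 2 (0.0522) or 3 (0.0581), Ly6a without NV replicate 1 (0.0587) and Fgd5 without control replicate 1 or 4 or NV replicate 2 or 3 (0.0755 to 0.106). The 6 multipotent progenitor markers summed to 128 to 178 CPM in control, 130 to 192 CPM in NA10hd and 184 to 209 CPM in NV, with Dntt at 0 counts in all libraries. Fcer1g is also a gene of mast cells, basophils, monocytes and NK cells. The 8 mast cell and basophil markers summed to 0.474 to 3.36 CPM in control, 0.284 to 6.15 CPM in NA10hd, where Fcer1g was highest, and 3.26 to 9.47 CPM in NV, where it was lowest, with Mcpt8, Prss34, Cma1 and Tpsb2 at 0 counts in all libraries. The 9 T and NK cell markers summed to 34.6 to 44.8 CPM in control, 48.3 to 66.0 CPM in NA10hd and 31.7 to 53.0 CPM in NV, with Cd3e, Cd3g and Ncr1 at 0 counts in all libraries. Nkg7, of cytotoxic granules, had 12.0 CPM in control and 39.0 CPM in NV (log2 fold change 1.71, edgeR adjusted p = 0.0530), while Klrb1c, an NK cell receptor gene, fell from 26.6 CPM in control to 1.48 CPM in NV (log2 fold change -4.20, edgeR adjusted p = 0.00443).

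Ncam2, Matn2 and Inhba are also expressed by non-blood cells. The 8 stromal markers summed to 8.77 to 19.8 CPM in control, 12.9 to 25.8 CPM in NA10hd and 2.90 to 10.02 CPM in NV, with Dcn at 0 counts in all libraries. The 6 endothelial markers summed to 183 to 224 CPM in control, 182 to 258 CPM in NA10hd and 126 to 137 CPM in NV. Cdh5 was at 0 counts in NV, but at no more than 0.877 CPM in any control library. Emcn, also an HSC surface gene, fell from 94.9 to 34.9 CPM (log2 fold change -1.45, edgeR adjusted p = 0.00306). Tie1 was at 77.0 CPM in control and 75.1 CPM in NV (-0.04, edgeR adjusted p = 0.915), and Kdr (-1.02, 0.0685) and Pecam1 (-0.48, 0.660) did not pass. The 12 neutrophil and monocyte markers, with 745 to 948 CPM in control, 831 to 1074 CPM in NA10hd and 749 to 802 CPM in NV, had Ctsg at 0 counts in all libraries. Nearly all of this sum was Lyz2 (435 to 552 CPM in control) and Prtn3 (249 to 460 CPM), and no other marker of the list passed 3.89 CPM in any library. The 6 B cell markers, with 47.5 to 72.9 CPM, 48.8 to 108 CPM and 41.0 to 53.9 CPM, overlapped between the groups. Most of their sum was Cd79b (45.3 to 69.8 CPM in control), with Ms4a1 and Pax5 at 0 counts in all libraries. The 8 megakaryocyte and platelet markers summed to 352 to 431 CPM in control, 262 to 487 CPM in NA10hd and 315 to 647 CPM in NV, with members called in both directions in NV. Pf4 (20.7 to 158 CPM, log2 fold change 2.91, edgeR adjusted p = 0.000911), Itga2b (58.4 to 145 CPM, 1.30, edgeR adjusted p = 0.00684) and Ppbp (3.05 to 10.4 CPM, 1.76, edgeR adjusted p = 0.0324) rose, while Vwf fell as given above. Ppbp passed only without control replicate 3 when single libraries were left out (edgeR adjusted p of 0.0573 to 0.116 without each other library). The 8 erythroid markers summed to 19.6 to 25.3 CPM in control, 18.3 to 32.5 CPM in NA10hd and 42.6 to 82.2 CPM in NV, where Hba-a1, Hba-a2 and Alas2 were at 0 counts. Klf1 (3.91 to 17.6 CPM, log2 fold change 2.17, edgeR adjusted p = 0.0257) and the erythropoietin receptor gene Epor (16.6 to 43.0 CPM, 1.37, edgeR adjusted p = 0.0105) rose. Without NV replicate 2 neither passed in edgeR (adjusted p = 0.110 and 0.0690), and Klf1 did not pass without NV replicate 3 (0.115) or control replicate 1 (0.0554) or 4 (0.0734). The part of any of these cells in the levels of the 9 genes was not tested.

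Across all 11 libraries, the genes outside the set that were most like the mean of the 9 (Pearson's r of log2(CPM + 0.5), each gene centred, 13598 genes) were Ifitm1 (r = 0.969), Cd63-ps (0.948), Plxdc2 (0.941), Armcx4 (0.929) and Pygm (0.923). Among the 9 genes themselves, r with the same mean, which includes them, was 0.969 for Ncam2, 0.953 for Gda, 0.924 for Slc17a8, 0.842 for Inhba, 0.821 for Fcer1g, 0.793 for Agpat4, 0.664 for Acox2, 0.645 for St6galnac2 and 0.622 for Matn2. The mean spans the NV libraries, from which the 9 genes were picked for low counts. A high r, for these genes or for others, thus follows in part from that choice and carries no test. Ifitm1, an interferon-induced transmembrane protein gene, had 1459 ± 129 CPM in control, 1673 ± 408 CPM in NA10hd (SD, n = 4 each) and 415 ± 34.6 CPM in NV (SD, n = 3). Armcx4 had 14.6 ± 5.001, 14.7 ± 2.59 and 2.87 ± 0.783 CPM, and Pygm, the muscle form of glycogen phosphorylase, 77.4 ± 16.05, 97.2 ± 14.6 and 18.3 ± 6.04 CPM in the same order. Plxdc2 had 137 ± 12.3, 141 ± 13.3 and 63.6 ± 7.19 CPM. All 5 were low in NV and near or above control in NA10hd on the means, apart from Cd63-ps, at 60.7, 52.3 and 34.0 CPM, a pseudogene whose reads can be shared with Cd63.

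**Figure D4:**
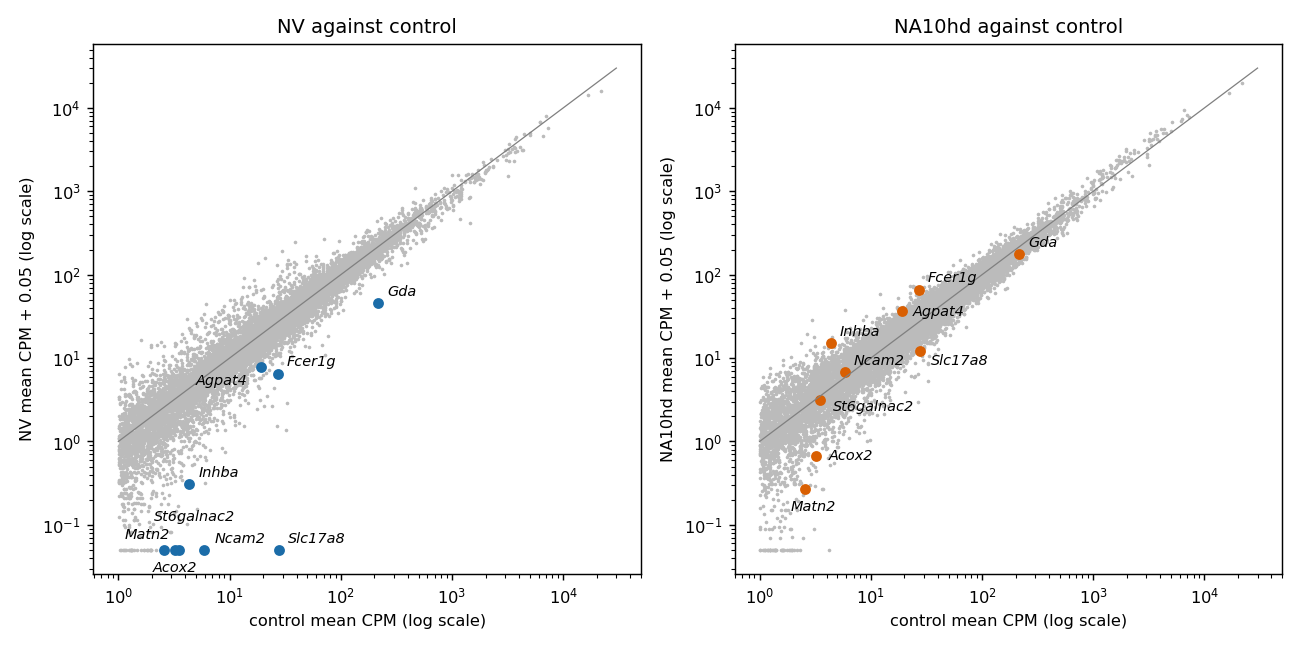
Mean CPM in control (horizontal axis) against mean CPM plus 0.05 in NV (left panel) and in NA10hd (right panel), all on log scales, for genes with a control mean of at least 1 CPM, with the 9 genes named and the line of equal levels drawn. In the NV panel the 5 genes at 0 lie along the lower edge, at control means from 2.57 CPM for Matn2 to 27.6 CPM for Slc17a8, and in the NA10hd panel Fcer1g, Agpat4 and Inhba lie above the line and Acox2 and Matn2 below it.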

How the data were processed

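RNA-Seq of 1000-cell HSC aliquots from 11 samples was used. The authors amplified cDNA, prepared Nextera XT libraries and mapped reads with HISAT2 on NCBIM37. They deposited raw featureCounts counts per gene, not normalized, for 37991 Ensembl genes. Versions, annotation release, strand setting and handling of reads with several matches are not given in the sources used here. Symbols and positions came from GENCODE vM1, on the same build, for 37205 IDs and were lacking for 786. Groups follow the genotype labels.

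Each of the 3 comparisons was fitted on its own libraries in edgeR 4.0.16 (R 4.3.3), with TMM factors, the default low-count filter, the quasi-likelihood test and Benjamini-Hochberg adjustment over all genes tested. A DEG had a fold change over 1.5 with an adjusted p below 0.05. CPM were counts scaled to the total times the TMM factor, and folds against groups at 0 counts used 3 counts over the group and totals alone. SE was the log2 fold change over the root of the F statistic. Code was tested on simulated data, and replicates differed by more than counting noise (chi-square per degree of freedom of 6.86 or more). Promoter sequences came from RefSeq on GRCm38.p6, and none of their coordinates was set against NCBIM37 positions. Windows for St6galnac2 and Matn2 were not used here. Figures were drawn with matplotlib 3.10.9.

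The 9 genes, the lists and the tests were chosen with earlier results of these data known. Besides the 9 genes, the text names called genes of each family list (up to 4 per list), called neighbours and the nearest 4 (except for a neighbour that is not reported here), the 5 genes most like the mean of the set, and, chosen after their values were seen, some markers and genes at 0 counts in all libraries of a mutant. Alternatives were DESeq2 1.42.0, its size factors within edgeR, no low-count filter, a replicate block, one fit of all 3 groups, libraries of the same sex mix, each library left out, CPM without TMM factors, a pseudocount of 2 CPM and a control minimum of 2 CPM.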

Additional observations from a re-analysis of the deposited data

Results flagged for a closer look

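St6galnac2 in NA10hd replicate 3 stood at 10.7 CPM, far above the next NA10hd library at 1.67 CPM, with a gap of 0.844 of the group's range (past Dixon's limit for 4 libraries). Matn2 in NA10hd replicate 2 stood at 0.875 CPM (11 counts) with the other 3 NA10hd libraries at 0 counts. Of 18 groups of 4 libraries examined, about 1 in 20 would stand out by chance.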

How the results depend on the processing

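In NA10hd against control, 1 gene of all tested was called by edgeR, against 238 by DESeq2, 39 with all 3 groups in one fit, 8 without a low-count filter, 0 with libraries of the same sex mix and 0 to 5 with a library left out. In NV against control 641 were called, against 1015 by DESeq2, 155 in one fit, 301 with the same sex mix and 263 to 643 with a library left out, and in NA10hd against NV 685, against 1472 by DESeq2, 1152 in one fit and 146 to 771 with a library left out. Of the family lists, 8 genes were called in NV against control, 2 (both lower) with all groups in one fit, 4 (all lower) with the same sex mix and 3 to 7 with a library left out. In NA10hd against control DESeq2 called 3 family genes and 3 of the 9 genes, where edgeR called 0 of either. Of 18 neighbours, 2 were called in NV, 4 by DESeq2, 0 with all groups in one fit or the same sex mix, and 1 to 3 with a library left out. The causes of these differences were not tested.

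Same-numbered libraries did not deviate together (correlations of -0.115 to 0.0291), so a replicate block has no basis in the design. It gave 0 genes in NA10hd against control, 432 in NV against control and 581 in NA10hd against NV, 5 family genes and 1 neighbour.

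For the 9 genes, the NA10hd against control estimate of St6galnac2 was -0.14 and ranged from -2.52 to 0.27 with a library left out, above 0 in 5 of these, and that of Gda turned from -0.30 to 0.032 with the same sex mix. In NV against control each alternative that gave a value gave a lower one, as the choice of the genes fixes. edgeR's threshold was missed by Agpat4 in 7 of 13 alternatives, by Inhba in 5 of 13, by Matn2 in 2 of 13, by Acox2 in 1 of 13 and by St6galnac2 in 4 of 9 (it gave no value without control replicate 1, 2 or 4 or with the same sex mix, where it was not tested). Depth limits St6galnac2, Acox2, Matn2 and Inhba, with at most 46 counts in a control library.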
